A study of Mus musculus with 8 samples.

Results

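Cell cycle and DNA replication genes were followed through 8 Agilent 1-colour microarrays of mouse brain, kidney and liver after lead exposure. The group held 33 genes of the 37325 gene names on the array. Its members were chosen by name, as 10 genes of DNA replication and 23 genes of mitosis, and all 33 had at least 1 probe, with 59 probes in all. The male mice, whose strain and age are not given in the sources used here, drank distilled water as the control or, over 3 weeks, water with lead acetate. The low dose was 100 mg/L and the high dose 1000 mg/L. Brain and kidney were profiled for all 3 groups, liver for the control and the high dose. No genotype or transgene is named, each tissue is a bulk piece that mixes many cell types, and whether a sample came from 1 animal or a pool is not given in the sources used here. Each of the 8 groups had 1 array, so differences within a tissue carry no p-value and no replicate check. The series as a whole was set up around transporter genes.

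A dividing cell copies its DNA in S phase and separates the copies in M phase. The Mcm proteins form the ring-shaped helicase that is loaded on DNA in G1 and unwinds it in S phase, ribonucleotide reductase (Rrm1, Rrm2) and thymidylate synthase (Tyms) supply DNA building blocks, and Pcna is the sliding clamp of the polymerases. Mitosis genes are switched on later, in G2, and encode the cyclin B kinase, the spindle and kinetochore proteins and the machinery that degrades cyclins at anaphase. The grown brain, kidney and liver hold few dividing cells, and replication genes also serve DNA repair and resting cells, so both groups are kept apart here. In bulk tissue, fewer dividing cells and less RNA per dividing cell cannot be told apart.

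Promoters of both groups are known to carry different control elements, and they are shown because the groups are described apart below. Promoter windows from RefSeq (GRCm38.p6), reaching from 250 bases before to 50 after a gene's start, were found for 28 of the 33 members; Mcm4, Ccna2, Aurkb, Kif20a and Tpx2 were not matched. Each line gives the 180 bases before the start, 5′ to 3′ on the gene's strand, with the matched motifs in capitals.
Ccnb2 (chr9:70421555-70421734, minus strand): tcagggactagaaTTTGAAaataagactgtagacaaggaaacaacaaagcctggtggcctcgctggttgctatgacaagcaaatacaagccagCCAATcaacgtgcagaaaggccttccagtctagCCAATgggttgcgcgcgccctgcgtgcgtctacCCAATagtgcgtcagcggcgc
Cdc20 (chr4:118437344-118437523, minus strand): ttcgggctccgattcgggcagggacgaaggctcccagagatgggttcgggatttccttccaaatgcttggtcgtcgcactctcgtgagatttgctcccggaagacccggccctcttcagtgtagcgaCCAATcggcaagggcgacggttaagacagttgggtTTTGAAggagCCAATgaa
Cdk1 (chr10:69352913-69353092, minus strand): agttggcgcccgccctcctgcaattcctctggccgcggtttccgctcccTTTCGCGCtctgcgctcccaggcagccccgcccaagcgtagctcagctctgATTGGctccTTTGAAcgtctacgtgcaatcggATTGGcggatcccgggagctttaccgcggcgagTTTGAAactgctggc
Ube2c (chr2:164769749-164769928, plus strand): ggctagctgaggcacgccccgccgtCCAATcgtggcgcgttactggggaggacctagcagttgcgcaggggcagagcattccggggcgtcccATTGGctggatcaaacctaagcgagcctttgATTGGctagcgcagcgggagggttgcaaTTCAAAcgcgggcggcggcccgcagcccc
Mcm5 (chr8:75109329-75109508, plus strand): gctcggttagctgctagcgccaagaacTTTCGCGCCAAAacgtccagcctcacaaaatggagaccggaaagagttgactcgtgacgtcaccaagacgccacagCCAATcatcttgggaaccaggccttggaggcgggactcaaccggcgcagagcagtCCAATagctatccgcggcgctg
Mcm6 (chr1:128359706-128359885, minus strand): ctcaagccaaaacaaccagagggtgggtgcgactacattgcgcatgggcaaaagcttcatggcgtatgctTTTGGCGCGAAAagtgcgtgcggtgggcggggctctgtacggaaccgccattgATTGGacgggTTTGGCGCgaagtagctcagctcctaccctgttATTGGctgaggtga

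Of these, Ccnb2, Cdc20, Cdk1 and Ube2c are mitosis genes, and Mcm5 and Mcm6 replication genes. The motifs searched on both strands were the cell cycle homology region (CHR, the letters TTTGAA or TTCGAA), the CCAAT box (CCAAT) and the E2F site (TTTCCCGC, TTTCGCGC, TTTGCCGC or TTTGGCGC, whose matches on opposite strands can overlap, as in Mcm5 and Mcm6). In the 300-base windows, a CHR was found in 15 of 19 mitosis genes, 2 of 9 replication genes and 21.7% of all 27025 genes with a window. A CCAAT box was found in 17 of 19 mitosis genes, 8 of 9 replication genes and 41.1% of all genes. An E2F site was found in 1 mitosis gene, Cdk1, in 4 replication genes (Mcm3, Mcm5, Mcm6 and Mcm7) and in 2.6% of all genes. The mitosis genes with no CHR in the window were Birc5, Ccnb1, Cenpe and Nusap1. A match is a description of the letters and not a site shown to be bound.

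All levels are log2 values of the scanner signal relative to the 75th percentile of the same array, so they compare 1 gene between arrays and not different genes with each other. The tissue labels were borne out by marker lists. The log2 summed level of kidney markers was 10.35 to 10.40 in kidney and at most 0.47 elsewhere, that of hepatocyte markers 12.52 and 12.54 in liver and at most 7.84 elsewhere, and that of neuron markers 7.93 to 8.02 in brain and at most 4.67 elsewhere. Between 53.4% and 67.1% of the spots of an array were well above background, by the scanner's flag. All 10 replication genes were well above background on all 8 arrays. Of the 23 mitosis genes, 9 were above it on all 8 arrays, 19 on every kidney array, 13 on every brain array and 10 on both liver arrays. Bub1 and Bub1b, kinases of the spindle checkpoint, and the spindle motor Kif11 were not well above background on any array and give no comparison. The array error given below is the scanner software's own error for the difference of 2 spots. It was 0.21 for the median gene and leaves out variation between animals. A gene passed the size rule if it differed by at least 1 (2-fold), by more than 3 times its array error, and was well above background and unsaturated on both arrays. For the members a smaller step of at least 0.5 was counted too.

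Among the 3 tissues, the kidney had the highest levels of most members. It was the highest tissue for 8 of the 10 replication genes and for 8 of the 9 mitosis genes measured on all 8 arrays, and for 4258 of 17449 genes overall. For Pcna and Tyms, counted among these, the kidney and liver ranges overlapped. Every kidney array lay above every brain and liver array for 6 of those replication genes and 8 of those mitosis genes, against 18.6% of all genes. In a limma fit of tissue and dose over 17448 genes with Benjamini-Hochberg adjustment, all 10 replication genes and all 9 mitosis genes were higher in kidney than in brain, where 51.7% of all genes were higher. The median kidney-minus-brain difference was 1.52 for replication genes and 1.89 for mitosis genes, beside 0.28 for all genes. Arrays of different doses served as the replicates of a tissue in this fit, so its p-values measure the spread between these arrays around additive tissue and dose terms.

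The mitosis genes separated kidney from liver as well. Of the 9 measured on all arrays, 8 were higher in kidney than in liver and 1 was lower, with a median difference of 1.84. The median over all genes was -0.22 and 27.1% of them were higher. Among the replication genes 6 were higher in kidney, with a median of 0.36, and the others, Mcm3, Mcm7, Pcna and Tyms, did not pass the test. Whether the mitosis genes differed more between kidney and liver than the replication genes was not tested. Scaling shifts these tissue contrasts: with quantile normalization the all-gene median of kidney minus liver moved to -0.08 and the share of higher genes among all calls from 36.7% to 45.5%, while the mitosis median was 1.77 and the replication median 0.35. With normexp background correction these medians were -0.24 for all genes, 1.32 for mitosis genes and 0.31 for replication genes. The kidney-minus-brain medians were then 1.67 for mitosis genes and 1.38 for replication genes.

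Mki67, the proliferation antigen Ki-67, shows the pattern. Its level was -0.37, -0.05 and -0.04 in kidney (control, low and high dose), -2.98, -2.56 and -3.11 in brain, and -2.62 and -2.57 in liver (control and high dose). The 3 kidney arrays stand apart from the other 5. The fitted difference was 2.73 ± 0.13 (SE) against brain (limma adjusted p = 3.65e-07) and 2.34 ± 0.15 against liver (limma adjusted p = 4.94e-06). Cdc20, the activator of the anaphase-promoting complex, stood 2.60 ± 0.24 above brain and 2.51 ± 0.29 above liver in the same fit. The E2 enzyme Ube2c, which works with that complex, was higher in kidney by 2.89 ± 0.22 than in brain and by 1.99 ± 0.26 than in liver.

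Mitosis genes too dim in some tissue for that fit gave bounds or measured values on fewer arrays. The kinesin Kif20a, the kinetochore protein Cenpf and the spindle protein Nusap1 were well above background on all 3 kidney arrays and on no brain or liver array. As a lower bound, kidney was at least 5.80-fold above brain for Kif20a, at least 5.04-fold for Cenpf and at least 5.44-fold for Nusap1. Against liver the bounds were at least 2.92-fold, 2.36-fold and 2.55-fold in the same order. Aurkb, the chromosomal passenger kinase, was at least 2.09-fold above brain, and the spindle assembly factor Tpx2 at least 2.01-fold above liver. For such a bound the mean of the bright arrays was set against a ceiling for each dim array. The ceiling was its measured value or, if higher, the dimmest signal still called well above background on it. For Kif20a on the high-dose and Cenpf on the control brain array it was the measured value, so their bounds against brain are approximate. Bounds were computed only for genes bright on every kidney array and on no array of the other tissue. Their direction was fixed by that choice, so they are no support for a kidney difference.

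Cenpa, the histone H3 variant of centromeres, was the exception among the mitosis genes. It was highest in liver, at -1.97 and -2.05, with -3.32, -3.19 and -2.97 in kidney and -3.67, -3.70 and -3.52 in brain. The ranges of the 3 tissues did not overlap. Kidney lay below liver by a fitted difference of -1.12 ± 0.15 (SE; limma adjusted p = 0.000355).

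**Figure D1:**
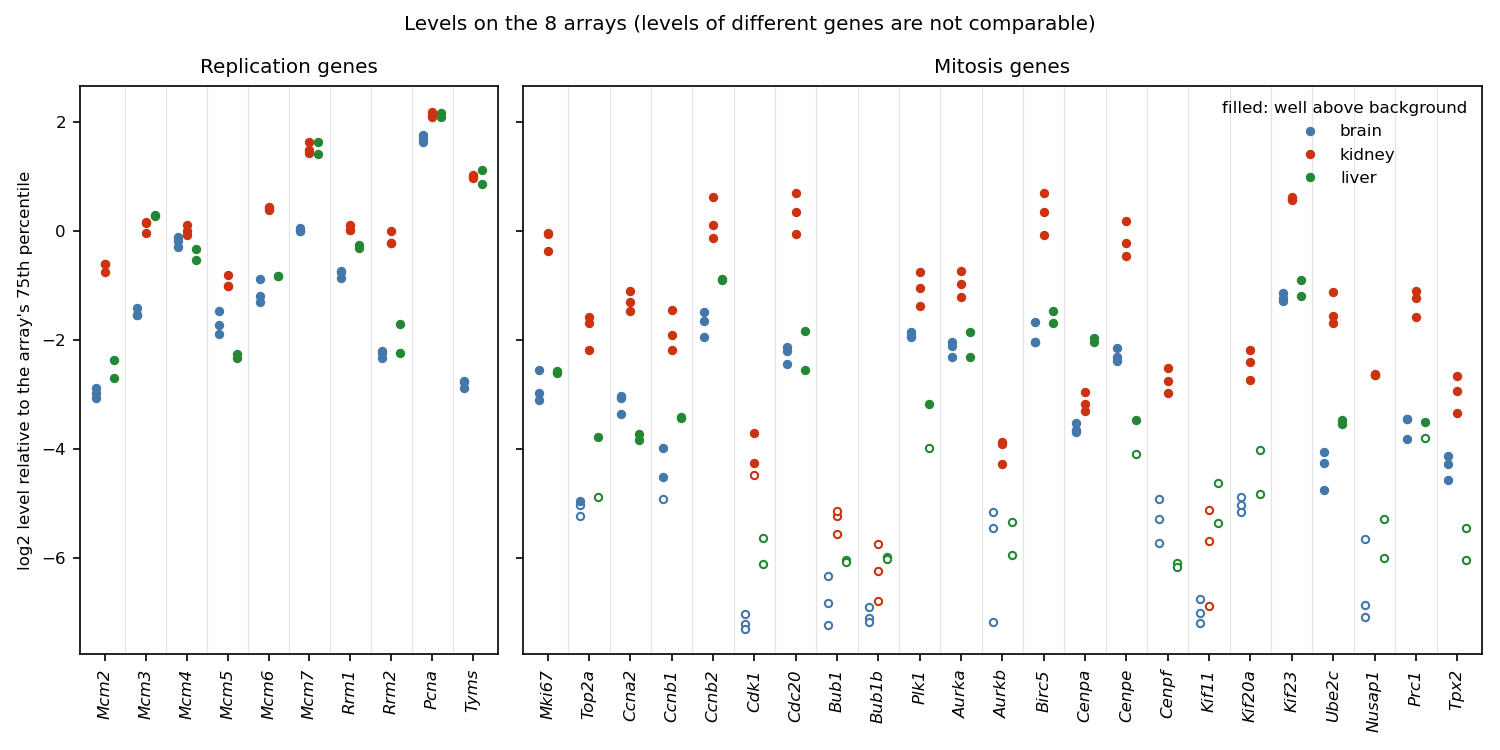
Levels of the 33 members on the 8 arrays (y axis, log2 relative to the 75th percentile of the array; x axis, genes), with brain in blue, kidney in red and liver in green, filled where the spot was well above background. The red points of most mitosis genes lie above the blue and green ones, Cenpa is highest in liver, and Tyms separates brain from the other tissues.

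Within the replication genes the tissue order differed from gene to gene. The helicase subunit Mcm2 had levels of -0.76, -0.60 and -0.61 in kidney (control, low, high), -2.89, -3.07 and -2.97 in brain and -2.38 and -2.70 in liver. Kidney exceeded brain by 2.32 ± 0.12 and liver by 1.89 ± 0.14 in the fit. Rrm2, the small subunit of ribonucleotide reductase that is made in S phase, gave 2.12 ± 0.14 and 1.84 ± 0.16, while its partner Rrm1, made more evenly through the cycle, gave 0.83 ± 0.07 and 0.32 ± 0.08. Mcm6 exceeded brain by 1.54 ± 0.10 and liver by 1.27 ± 0.12. Mcm5 was higher in kidney by 0.75 ± 0.09 than in brain and by 1.26 ± 0.11 than in liver, and was lower in liver than in brain (-0.51 ± 0.11, limma adjusted p = 0.00327). For Mcm4 the kidney differences were 0.22 ± 0.08 and 0.41 ± 0.09.

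Mcm3, Mcm7, Pcna and Tyms did not pass the test between kidney and liver. Their kidney-minus-liver differences were -0.20 ± 0.09, -0.05 ± 0.08, 0.02 ± 0.07 and 0.03 ± 0.10 in that order. For Mcm7, Pcna and Tyms the kidney and liver ranges overlapped. For Mcm3 they did not, with -0.05 to 0.16 in kidney and 0.26 to 0.29 in liver. Tyms had the largest tissue difference of the 19 members in the fit, 3.79 ± 0.08 above brain in kidney, with levels of 1.02, 0.96 and 0.99 in kidney and 0.85 and 1.11 in liver against -2.75, -2.88 and -2.78 in brain. Its 3 probes do not show this alike. A second probe gave 0.44 to 0.52 in kidney, 0.27 to 0.37 in liver and -3.65 to -3.44 in brain, while the third gave -1.60 to -1.57, -1.82 to -1.77 and -2.53 to -2.29. The first 2 probes lie near each other on chromosome 5 (mm9 starts 30387605 and 30388520) and the third at 30396463.

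In the kidney, lead exposure went along with higher levels of the mitosis genes and little difference in the replication genes. At the high dose, 18 of the 20 mitosis genes measured on both arrays lay above the control, with a median difference of 0.51, whereas 44.0% of all genes lay above it and their median was -0.03. By at least 0.5, 10 of the 20 were higher, against 4.25% of all genes, and 0 were lower by that much. With normexp background correction 5 were higher by 0.5 and the median was 0.32, with Cdk1 at 0.20 and Tpx2 at 0.30. The share of all genes higher by 0.5 under that correction was not counted. The replication genes had a median of 0.02, with 6 of 10 above the control and 0 beyond 0.5 in size. No member of either group passed the size rule, which 1.66% of all genes did. The mitosis genes dimmest in kidney are the least precise, Cdk1 and Aurkb with array errors of 0.35 and 0.38.

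The cyclins of M phase were among the largest differences. Ccnb2, a cyclin B that partners the mitotic kinase, had levels of -0.14 in the control, 0.10 at the low and 0.63 at the high dose, a high-dose difference of 0.77 (1.70-fold, array error 0.20). Its probe lies on chromosome 9 from 70255671 to 70255730 in the mm9 coordinates of the array. Ccnb1, the main mitotic cyclin, went from -2.19 to -1.92 and -1.45, a difference of 0.74 (array error 0.21). Cdk1, their kinase, was above background on the control array (-4.26) and the high-dose array (-3.71) but not at the low dose, and differed by 0.56. These genes form the complex that drives entry into mitosis, and each was highest on the high-dose array. Ccna2, the cyclin of S and G2 phase, differed by 0.36, and its second probe by 0.49.

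Cdc20, Birc5 and Ube2c, which act around anaphase, had differences between 0.57 and 0.76. Cdc20 had levels of -0.05, 0.35 and 0.70 (control, low, high), a high-dose difference of 0.75, and a second probe of this gene gave 0.77. The probes lie on chromosome 4 from 118105534 to 118105593 and from 118107356 to 118107415 (mm9). Birc5, survivin, the inhibitor-of-apoptosis protein of the chromosomal passenger complex, had levels of -0.07, 0.35 and 0.69, a difference of 0.76, with 0.57 for its second probe. Ube2c went from -1.70 to -1.56 and -1.13 (0.57). For these genes the order of the arrays was control, low, high with both of their measured probes where they had 2.

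Among spindle and kinase genes, Tpx2 (-3.34, -2.94 and -2.67) differed by 0.67 at the high dose and the Polo-like kinase Plk1 (-1.37, -1.04 and -0.76) by 0.62. Top2a, the topoisomerase that untangles sister DNA, had -2.18, -1.70 and -1.59, a difference of 0.59 with its brightest probe and 0.27 with a second one. Kif20a, which acts in cytokinesis, had -2.73, -2.41 and -2.18 (0.55). Aurka and Prc1 followed at 0.47 each, although other probes of Prc1 gave -0.08 and 0.21. Aurkb (0.39), Cenpa (0.35), Mki67 (0.33) and Cenpf (0.23, second probe 0.42) were smaller. Kif23 at 0.03 (other probes 0.13 and 0.50), Nusap1 at -0.00 and the kinetochore motor Cenpe at -0.25 did not share that size or direction.

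Over all 29 measured probes of the mitosis genes, 26 lay above the control at the high dose and their median was 0.47. The 9 probes that were not the brightest of their gene had a median of 0.42 and 8 of them were above 0. The 16 measured probes of the replication genes had a median of 0.02, with 9 above 0. Second probes share the RNA and the array of the first, so they check the probe and not the animal.

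**Figure D2:**
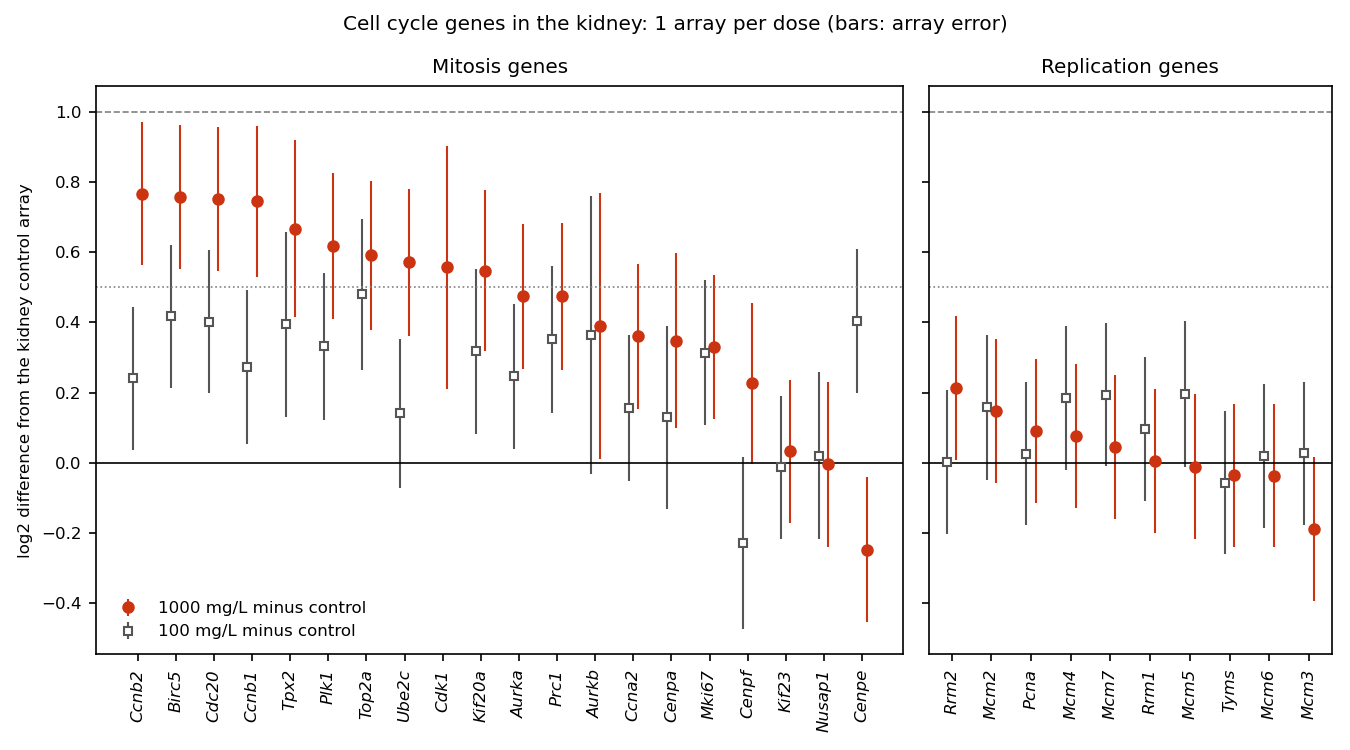
Differences from the kidney control array (y axis, log2) for each member measured at the high dose (red circles) and the low dose (open squares), with the array error as bars and dotted and dashed lines at 0.5 and 1. Mitosis genes run from 0.77 for Ccnb2 down to -0.25 for Cenpe at the high dose, and replication genes stay between -0.19 and 0.21.

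At the low dose the kidney showed the same group above its control by less. Of 19 mitosis genes, 17 were above the control array, where 47.8% of all genes were, with a median of 0.31. In size 0 of the 19 reached 0.5, against 1.52% of all genes upward and 2.28% downward. Top2a was the highest at 0.48 and Cenpf the lowest at -0.23, but their second probes gave -0.11 and 0.10. The 8 measured mitosis probes that were not the brightest of their gene had a median of 0.13, with 5 above 0. The replication genes had a median of 0.06 and 9 of 10 lay above the control, from -0.06 for Tyms to 0.20 for Mcm5. Both kidney doses were set against the same control array, so they share that array's error.

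The comparison of high with low dose leaves the control array out. Here 17 of 19 mitosis genes were higher at the high dose and their median difference was 0.23, where 44.3% of all genes were. Ccnb2 differed by 0.53, past the smaller step that 2.96% of all genes reached upward, and Cenpe by -0.65, a step that 1.99% reached downward. The replication median was -0.07, with Rrm2 highest at 0.21, Mcm3 lowest at -0.22 and 3 of 10 above 0. Other Mcm3 probes gave -0.15 to 0.52. No member passed the size rule in the low-dose comparison or in this one, where 0.492% and 1.08% of all genes did.

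The levels of 15 of the 19 mitosis genes measured on all 3 kidney arrays were in the order control, low, high. That order held for 19.4% of all genes and the opposite order for 27.3%. The exceptions were Cenpe, Cenpf, Kif23 and Nusap1. These counts use the brightest probe of each gene, and other probes did not always share its order. Another Top2a probe (-3.46, -3.57 and -3.19 in control, low and high) and another Prc1 probe (-3.55, -3.60 and -3.64) lacked it. A second Cenpf probe (-3.80, -3.70 and -3.38) and 1 of the other Kif23 probes (-4.21, -4.04 and -3.71) had it. Of the 10 replication genes 2, Rrm2 and Pcna, had that order. With 1 array per dose this is the order of 3 arrays, and a dose response was not tested.

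Other genes of the same machinery, from lists chosen with earlier results known, were looked at beside the members. At the high dose, 10 of 11 measured genes for spindle motors and cytokinesis lay above the kidney control, their median difference was 0.39, and the spindle proteins Ckap2 (1.07) and Spag5 (1.05, second probe 0.70) passed the size rule, which 1.12% of all genes did upward. Of 24 further mitotic kinase, checkpoint and APC/C genes 18 were above the control, with a median of 0.14, led by the securin gene Pttg1 (0.75). Of 17 kinetochore and condensin genes 13 were above it, with a median of 0.15 and the condensin subunit Ncapg at 0.74. Of all genes, 44.0% lay above that control.

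The lists nearer to S phase had medians close to that of all genes. Origin licensing and firing genes had a median of 0.00 over 20 genes, replication fork enzymes 0.02 over 23, deoxynucleotide supply 0.08 over 10 and G1 cyclins and kinases 0.02 over 8. Cdc45, the helicase cofactor, alone passed the size rule in these 4 lists, at -1.28 (array error 0.30), a rule that 0.538% of all genes passed downward. The primase subunit Prim2 differed by -0.76. Regulators of the E2F, RB, DREAM and FOXM1 families had a median of -0.06 over 22 genes, with E2f7, a repressor, lowest at -0.69.

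CDK inhibitors, which hold the cell cycle back, had a median of 0.38 over 7 measured genes. Of these, 3 passed the size rule upward, where 1.12% of all genes did. They were Cdkn3 (1.63, second probe 1.08), a phosphatase of the mitotic kinase that is itself made in dividing cells, Cdkn1a (1.13), the p53 target p21, and Cdkn2b (1.07, second probe 0.79), p15. Cdkn1a had levels of -1.09 in the control, -1.21 at the low and 0.03 at the high dose, so only the high-dose array stood apart, and the high-minus-low difference was 1.24, past the size rule that 0.842% of all genes passed upward. Cdkn2b was at -2.83, -1.92 and -1.76, with a low-dose difference of 0.91. Within the E2F list, E2f3 differed by 1.10 at the low dose and by -1.57 between high and low dose, from a dim probe with levels of -4.09, -2.99 and -4.56.

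**Figure D3:**
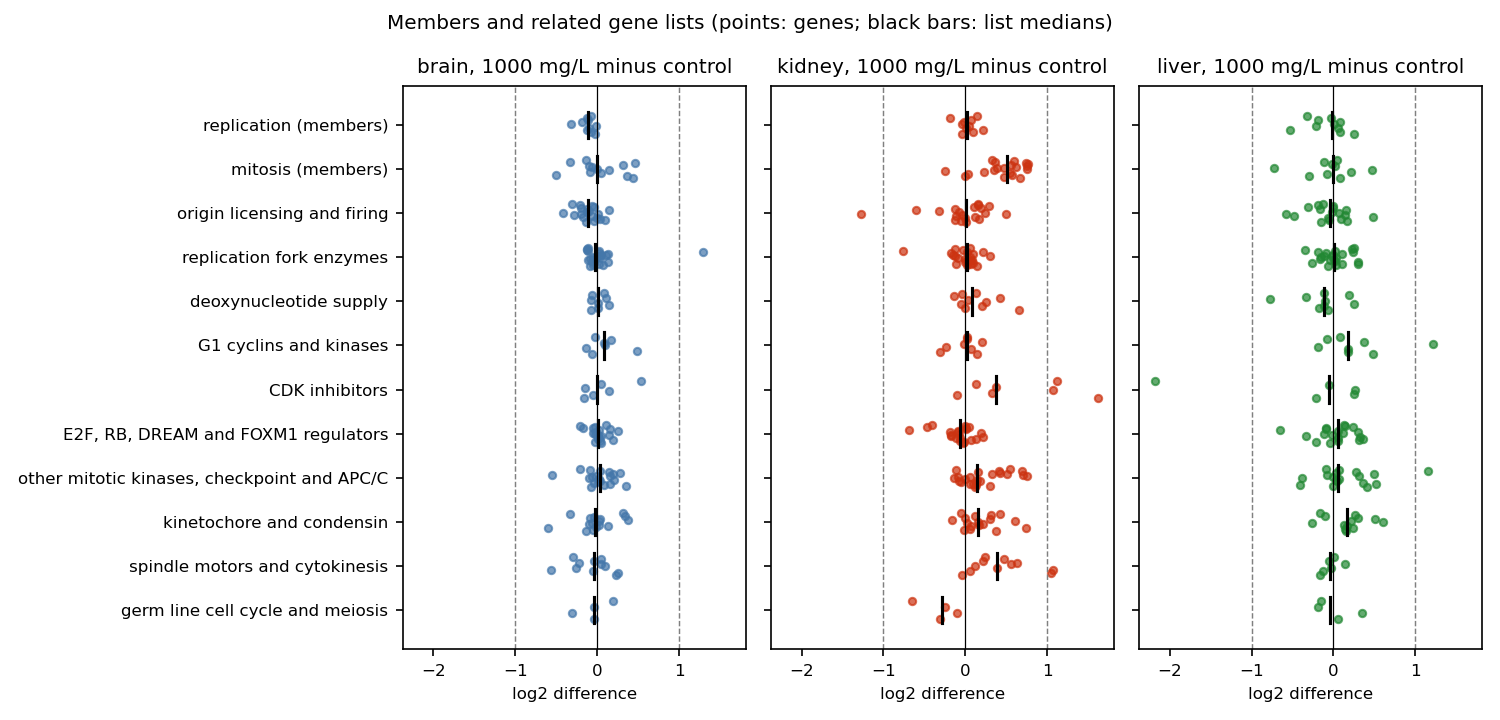
Differences of the high-dose array from the control array of the same tissue (x axis, log2) for the members and the related lists (rows), with 1 point per measured gene, black bars at list medians and dashed lines at 1 and -1. In kidney the mitosis, spindle and CDK inhibitor lists have medians of 0.51, 0.39 and 0.38, and the lists of S phase lie near 0.

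Markers of other cell types differed on the same kidney arrays. At the high dose, markers of kidney injury were above the control in 4 of 4 measured genes, with a median of 1.18, led by Havcr1 (1.78), which encodes KIM-1, and Lcn2 (1.62), and the log2 of their summed level was 4.57, 4.59 and 5.23 (control, low, high). Macrophage markers were above it in 5 of 6 (median 0.51; summed level 4.18, 4.16 and 4.24). Urothelium markers were above the control at both doses in 4 of 4 (medians 1.80 and 1.66; summed level -0.48, 1.24 and 1.25), and adrenal markers below it in 4 of 4 and 5 of 5 (medians -1.63 and -2.69; summed level 2.51, 0.22 and 0.20). Hepatocyte markers had a median of 1.22 at the high dose, with 4 of 5 above the control (summed level 7.84, 7.67 and 7.44). The list of 7 kidney markers differed by -0.00 and -0.01.

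Spermatid markers were below the kidney control at the low dose in 5 of 5 measured genes (median -0.98) and above it at the high dose in 6 of 6 (median 2.56), with summed levels of 1.34, 0.22 and 4.27. Of 13 genes of the germ line cell cycle and meiosis 4 were measured on the high-dose and control arrays; their median difference was -0.28 and 0 lay above the control. The part of any of these cell types in the mitosis values was not tested. Erythroid, B cell, T cell and endothelial lists had medians between -0.15 and 0.18 in the high-dose kidney, and the granulocyte list -0.60.

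In the brain both doses were set against the same control array, and the direct comparison of the doses is given below. At the low dose 10 of 14 measured mitosis genes were above the control, where 49.5% of all genes were, with a median of 0.22. The 3 measured mitosis probes that were not the brightest of their gene had a median of -0.27, with 1 above 0. With reported probes Ccnb1 was the single member past 0.5, at 0.54 (-4.52 in the control, -3.98 at the low dose). With normexp background correction its difference was 0.14. Of all genes, 2.15% were past 0.5 upward and 2.08% downward. A second Cdc20 probe gave 0.52 beside 0.24 for the reported one, and other Prc1 probes gave -0.30 and -0.27 beside 0.37. Mki67 differed by 0.42 (-2.98 and -2.56), and Aurka was lowest at -0.28. The replication genes had a median of -0.07, from Mcm6 at -0.42 to Mcm5 at 0.24, with 4 of 10 above 0. The median difference of 12 neural progenitor and neuroblast markers, of which 11 were measured, was 0.14, and striatum markers lay above the control in 7 of 7 with a median of 1.63 (summed level 5.31 in the control and 6.94 at the low dose). The summed level of 5 pituitary markers was 1.28 in the control, -0.15 at the low and -0.24 at the high dose. The part of these in the mitosis values was not tested.

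At the high dose the brain mitosis genes had a median of -0.00, with 6 of 13 above the control. Ccnb2 was highest at 0.46 (-1.94, -1.66 and -1.48 in control, low and high) and Ube2c lowest at -0.50 (-4.26, -4.05 and -4.76), a step downward that 1.82% of all genes reached (1.64% upward). With normexp background correction the Ube2c difference was -0.12. A second Cdc20 probe gave 0.54, above the Ccnb2 value, beside 0.32 for the reported one. Other Prc1 probes gave -0.38 and -0.06 beside 0.36. All 10 replication genes lay below the control, where 49.1% of all genes lay above it. Their differences were small, from -0.32 for Mcm6 to -0.01 for Mcm7 with a median of -0.11, inside the array error of 0.21 for all but Mcm6. Probes other than the reported one gave 0.05 and -0.24 for Tyms and -0.15 for Mcm3. Origin licensing genes had a median of -0.11 too, with 4 of 20 above the control.

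Between high and low dose in brain, the mitosis median was -0.02 with 5 of 13 above 0, and the replication median -0.04 with 4 of 10, where 50.5% of all genes were. With normexp background correction the mitosis median was 0.01. Ube2c (-0.71) and Mki67 (-0.56) were lower by the smaller step, which 2.92% of all genes reached downward and 2.47% upward. With normexp background correction they differed by -0.24 and -0.34 and did not reach it. Aurka was the highest of the mitosis genes at 0.21, Mcm5 the lowest replication gene at -0.42 and Mcm6 the highest at 0.10. No member passed the size rule in any brain comparison, where 0.745% of all genes did at the low dose, 0.452% at the high dose and 1.05% between doses. The order control, low, high held for 3 of 13 mitosis genes (Ccnb2, Cdc20 and Tpx2) and 0 of 10 replication genes, and for 16.1% of all genes. Of the related genes, Pole2, a subunit of DNA polymerase epsilon, passed the size rule at the high dose (1.29, array error 0.27), as 0.202% of all genes did upward and 0.250% downward, and Cdkn1a differed by 0.54. Lower values came from the separase gene Espl1 (-0.55), the condensin gene Ncaph (-0.60) and Ckap2 (-0.56). On the high-dose array striatum markers were below the control in 7 of 7 (median -0.62) and below the low-dose array in 7 of 7 (median -2.27). Choroid plexus markers were below the control in 7 of 7 on it (median -1.93; summed level 6.18 and 4.28) and spermatid markers above it in 4 of 4 (median 3.74; summed level -0.79 and 3.34), and their part in the members' values was not tested.

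In the liver at the high dose both groups were centred near 0. The mitosis median was -0.00 over 10 measured genes, with 5 above the control where 46.1% of all genes were, and the replication median was -0.01, also with 5 of 10 above it. No member passed the size rule, which 0.803% of all genes did. Cdc20 was lowest at -0.73 (-1.84 in the control and -2.56 at the high dose), but its second probe gave 0.10 (-2.34 and -2.24), and with normexp background correction the difference was -0.44. Aurka was highest at 0.47 (-2.32 and -1.85). Rrm2 differed by -0.53 (-1.72 and -2.25), or by -0.32 with normexp background correction, and Tyms was the highest replication gene at 0.26. A downward step of 0.5 was reached by 3.30% of all genes. The reported Mcm3 probe gave -0.03, and its other probes gave -0.69 to -0.02.

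The brightest probes of 4 mitosis genes were well above background on the liver control array and not on the exposed one. They were Top2a (-3.78 and -4.88), Plk1 (-3.18 and -3.98), Cenpe (-3.48 and -4.11) and Prc1 (-3.51 and -3.81). Another Prc1 probe was above background on both liver arrays and was higher on the exposed one (-2.98 and -2.77, a difference of 0.21). No mitosis gene had its brightest probe above background on the exposed liver array alone. Over all spots, 53.4% were well above background on the liver control array and 54.0% on the exposed one. The share of all genes above background on the control array alone was not counted. Whether the 4 genes exceed that share was therefore not tested. As lower bounds, the control was at least 1.45-fold above the exposed array for Cenpe and 1.17-fold for Top2a. For Plk1 and Prc1 the exposed value lay above the dimmest signal called well above background on that array. Their 1.75-fold and 1.24-fold are thus ratios of measured values, with array errors of 0.45 and 0.43, and not lower bounds. The brightest Prc1 probe also went against the direction of the other probe. In the related lists, Cdkn1a was lower (-2.18, array error 0.30, from -1.09 to -3.27), and Ccne1, the cyclin of the G1/S transition, and the mitosis-delaying kinase Wee1 were higher (1.22 and 1.15). All of these passed the size rule, which 0.344% of all genes passed upward and 0.459% downward. The deoxycytidine kinase gene Dck (-0.77), E2f7 (-0.65) and the Cenpa chaperone gene Hjurp (0.60) followed.

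**Figure D4:**
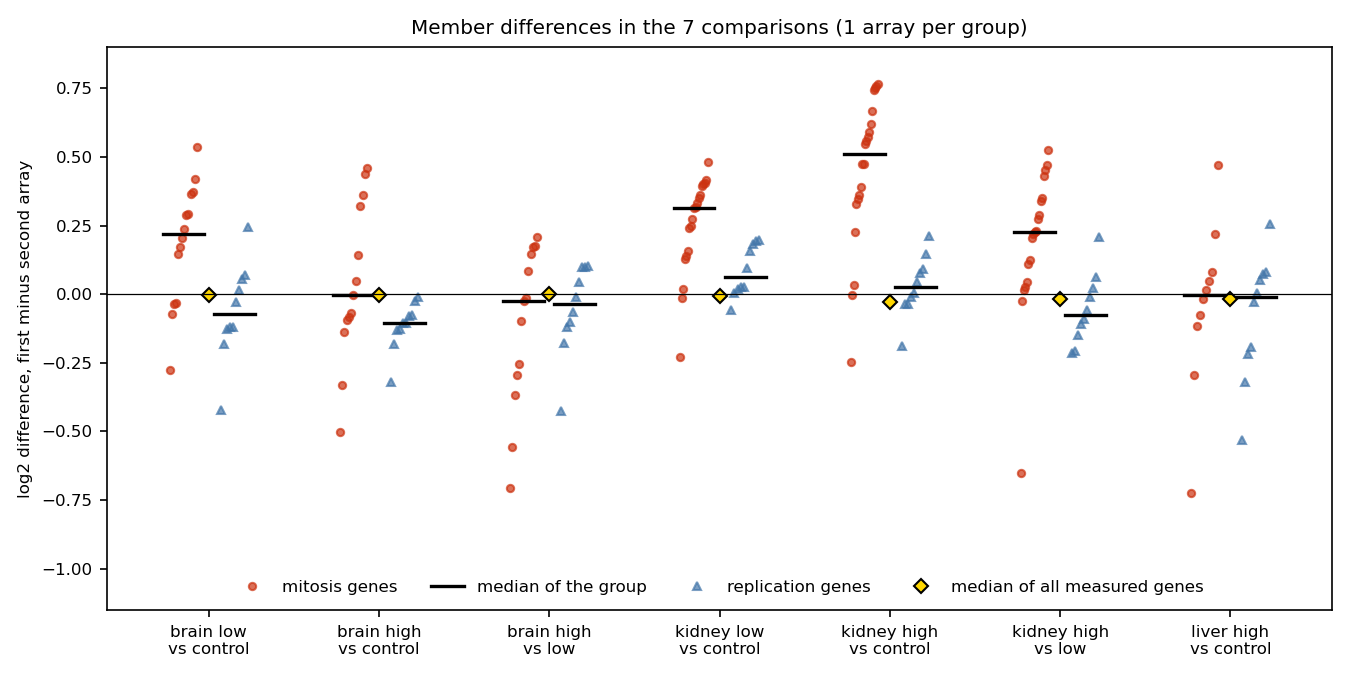
Differences of the members in the 7 within-tissue comparisons (x axis), in log2 (y axis), for mitosis genes (red circles) and replication genes (blue triangles), with black bars at group medians and yellow diamonds at the median of all measured genes. The mitosis medians are 0.31, 0.51 and 0.23 in the 3 kidney comparisons, 0.22 in the low-dose brain and between -0.02 and 0.00 in the others, and comparisons that share an array are not independent.

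An effect of dose shared by the tissues was looked for with the limma fit on the genes above background on all arrays. For the high dose 0 of 17448 genes passed an adjusted p of 0.05, so 0% were called, with 1180 at an unadjusted p under 0.05. Among the 19 members in this fit, Ccnb2 was the one at an unadjusted p under 0.05, with a difference of 0.41 ± 0.14 (SE; limma adjusted p = 0.689). Its high-dose differences were 0.46 in brain, 0.77 in kidney and 0.01 in liver. The mitosis median was 0.12 and the replication median -0.07. For the low dose in brain and kidney 0 genes passed as well, 421 at an unadjusted p under 0.05, and the mitosis median was 0.11. Mki67 had the smallest p of the members there, with a difference of 0.36 ± 0.15 (SE; limma adjusted p = 1). The kidney differences were not tested against those of the other tissues, since each tissue has 1 array per dose.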

How the data were processed

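Total RNA of each tissue was labelled with Cy3 and hybridised to 1 Agilent array per group, 8 arrays on 1 slide. The deposited intensities are linear signals that the authors' Feature Extraction 12.0.3.1 software, per the submitters' processing notes, made from the scan, with background subtraction and detrending per the file headers. The authors' deposited value table holds the same signals scaled to each array's 75th percentile, as comparison with the scanner values showed, and was used as an alternative. The scanner flags for signal above background, saturation and outlier spots are 0 or 1, as deposited.

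Here log2 of the processed signal minus the 75th percentile of its array was used, with spots of a probe averaged and control spots left out. A gene with several probes is given by its brightest probe over all arrays. Probe names come from the files, updated through RefSeq accessions. Probe positions are mm9 as in the files, without exon or UTR annotation, and promoter windows are GRCm38.p6. No coordinates were converted.

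Within tissues there is 1 array per group, so no test was made. The fit across arrays used limma 3.58.1 in R 4.3.3 (tissue plus dose, 3 residual degrees of freedom, intensity trend, Benjamini-Hochberg over 17448 genes above background on all arrays, threshold 0.05). The procedures were tested on simulated data. The number of arrays limits the precision, and array errors leave out animals. All members are named or counted. Values are given for members differing by at least 0.5 and for the extremes of both groups per comparison, and for the related genes past the size rule or most different at the high dose. The members and lists were chosen with earlier results of these data known. Alternatives were other scalings, normexp background correction with an offset of 50, the mean of probes, no filter on dim probes, other thresholds and the deposited table.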

Additional observations from a re-analysis of the deposited data

Results flagged for a closer look

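Cdc20 differed in opposite directions between tissues at the high dose, with 0.75 above the control in kidney and -0.73 in liver. Its second probe gave 0.77 in kidney and 0.10 in liver, so the liver value rests on the reported probe. Ube2c differed by 0.57 in kidney and by -0.50 in brain, with levels of -4.26 and -4.76 on the brain arrays, and the brain difference was -0.12 with normexp background correction. These differences between tissues were not tested, since each rests on 1 array per group.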

How the results depend on the processing

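No paired analysis was possible because each group has 1 array and the groups carry no replicate numbers, and leaving out a replicate within a group was not possible either. Of 433 alternative values of 78 results, 394 stayed near the reported value and 39 moved. Median scaling and the deposited table shift all differences of a comparison by the same constant. Dropping the filter on dim probes leaves each gene's own difference unchanged. These alternatives could therefore move single genes little or not at all, and their closeness is a weak check. No member was called within a tissue, so the sign was checked for single members that differed by at least 0.5. None of these changed sign. Medians near 0 did, such as that of the mitosis genes between brain doses (-0.02, and 0.01 with normexp background correction). Counting members with a difference of at least 0.5 and no error condition, in place of the size rule that 0 members passed, gave 10 in the kidney at the high dose, 2 between kidney doses, 1 in the brain at the low dose, 1 at the high dose, 2 between brain doses and 2 in liver. With normexp background correction, whose offset shrinks differences of dim probes by construction, 5 in place of 10 mitosis genes were at least 0.5 higher in the high-dose kidney. The matching share of all genes under that correction was not counted. Over 6 alternatives the median of the mitosis genes there ranged from 0.32 to 0.53, at the low dose from 0.20 to 0.36, and that of the replication genes at the high dose from 0.02 to 0.04. Cdk1 ranged from 0.20 to 0.57, Tpx2 from 0.30 to 0.69, and Cdc20 in liver from -0.73 to -0.31. With genes above background on at least 2 arrays in the limma fit, 30 members passed between kidney and brain (19 reported) and 25 between kidney and liver (15 reported), where 77.3% and 66.3% of all 25783 genes passed. Members such as Kif20a, Cenpf and Nusap1 entered this fit through their kidney arrays alone, so these counts support nothing about kidney. The mitosis median of kidney minus liver was 1.62 on control arrays alone and 1.84 on all arrays. Low signal limits the mitosis genes in brain and liver.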
